A study of Mus musculus with 32 samples.

Results

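The cells described here are neural cells isolated from the mouse hindbrain at embryonic day 9.5 (E9.5). They were chosen by their labels alone: major group NC, the neural group of the study's cell annotation, organ hindbrain (also written metencephalon) and stage E9.5 in the cell name. This gave 75 cells, 43 from embryo 1 and 32 from embryo 2, among 384 NC cells and 1916 cells in all. The study profiled 8 organs of 7 C57BL/6J embryos between E9.5 and E11.5. Single cells were released with trypsin, picked by mouth pipette and sequenced from the 3′ ends of their transcripts, each original transcript copy carrying a unique molecular identifier (UMI). No mutation, transgene or treatment is given for any embryo. Embryo 1 at E9.5 is labelled male and embryo 2 female. The groups set beside these cells were hindbrain NC cells of 2 embryos at E10.5 (30 and 27 cells) and 2 at E11.5 (26 and 25 cells), all labelled male, and forebrain NC cells of the same 2 E9.5 embryos (45 and 43 cells). The tissue is labelled metencephalon at E9.5 and hindbrain later, so whether the same territory was dissected at each stage is not given.

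The hindbrain forms from the caudal brain vesicle of the neural tube, behind the midbrain, and the isthmus at their border signals to both sides through Fgf8 and Wnt1. Its wall is a neuroepithelium of dividing, Sox2-positive progenitors, in which Notch signaling and its Hes targets hold cells in the progenitor state. Proneural basic helix-loop-helix (bHLH) factors such as the neurogenins raise Notch ligands and drive cells out of the cycle, after which Neurod-family factors and then cytoskeletal genes such as Tubb3 and Stmn2 mark the newborn neuron.

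Values are given as log2(TPM/10 + 1), where TPM is the deposited number of UMIs per 1000000 UMIs of the cell, and a level is the mean over the cells of an embryo. A gene was counted as expressed in a cell at a value of at least 1. The embryo was the replicate, and stage comparisons rested on 2 embryos at E9.5 against 4 later ones. Median depth per cell was 252234 UMIs in embryo 1 and 1075130 in embryo 2, against 126961 to 288831 in the 4 later embryos, and median genes per cell were 6862 and 7976.5 against 5204 to 6999. The labels name another sequencing instrument for E9.5 than for the later days, so instrument and stage cannot be told apart. The 2 E9.5 libraries share 14 cell numbers, and 1 later cell that repeated the values of another cell in every gene was left out at each of E10.5 and E11.5. Xist, the RNA of the inactive X chromosome, was expressed in 0 of 43 cells of E9.5 embryo 1 and 25 of 32 cells of embryo 2, as labelled. It was also expressed in 20 of 27 cells of the second E10.5 embryo, which is labelled male, so that library goes against its label and is written here as the library labelled E10.5 embryo 2.

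The markers named for these cells were measured first. Sox2 (chr3:34650405-34652461, GRCm38), a neural progenitor factor, had levels of 2.80 and 2.71 in embryos 1 and 2 and was expressed in 33 of 43 and 22 of 32 cells. Neurod4 (chr10:130268152-130280240), a bHLH factor of newly formed neurons, had levels of 1.19 and 0.66, with 13 of 43 and 7 of 32 cells. Tubb3 (chr8:123411424-123422015), a neuronal tubulin, had levels of 4.49 and 3.93 and was expressed in 43 of 43 and 29 of 32 cells. Stmn2 (chr3:8509360-8561606), a microtubule regulator of growing axons, was at 2.46 in both embryos, with 21 of 43 and 11 of 32 cells. Sox2 was thus expressed in a larger share of cells than Neurod4 and Stmn2 and in a smaller share than Tubb3 in both embryos.

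The genes that place a cell along the neural tube went against the organ label in part. Otx2 (chr14:48657677-48673819), a factor of forebrain and midbrain that normally stops at the isthmus, was expressed in 43 of 43 and 31 of 32 cells, at levels of 4.80 and 4.63. In the later hindbrain its levels were 0.46 and 3.23 at E10.5 and 1.11 and 1.99 at E11.5, all below both E9.5 embryos. Its relative Otx1 was expressed in 39 of 43 and 27 of 32 cells, at 2.81 and 2.11, against 0.12, 1.0, 0.39 and 0.63 later. Hox genes, which pattern the hindbrain behind its most anterior segment, gave 3 UMIs among 11649243 in embryo 1 and 9 among 34813805 in embryo 2. The later hindbrain libraries held 0 among 10381503 and 0 among 7914226 at E10.5, and 17 among 8301535 and 1 among 4690172 at E11.5. Hox UMIs were thus few at every stage, while the forebrain-and-midbrain factor Otx2 was in nearly every E9.5 cell. The E9.5 cells are named below by their label without a regional claim.

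The midbrain and anterior hindbrain factors En1 (chr1:120602418-120607992) and En2 (chr5:28165694-28172166) separated the 2 embryos. En1 was expressed in 0 of 43 cells of embryo 1 and 11 of 32 of embryo 2, and En2 in 0 of 43 and 13 of 32. Either gene was expressed in 18 of the 32 cells of embryo 2, and 17 of those 18 also expressed Otx2. In the later embryos either gene was expressed in 30 of 30, 21 of 27, 21 of 26 and 13 of 25 cells. Gbx2, a factor of the anterior hindbrain, was expressed in 3 of 43 and 0 of 32 cells, and Irx3, a factor of the tube behind the forebrain, in 32 of 43 and 20 of 32.

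**Figure D1:**
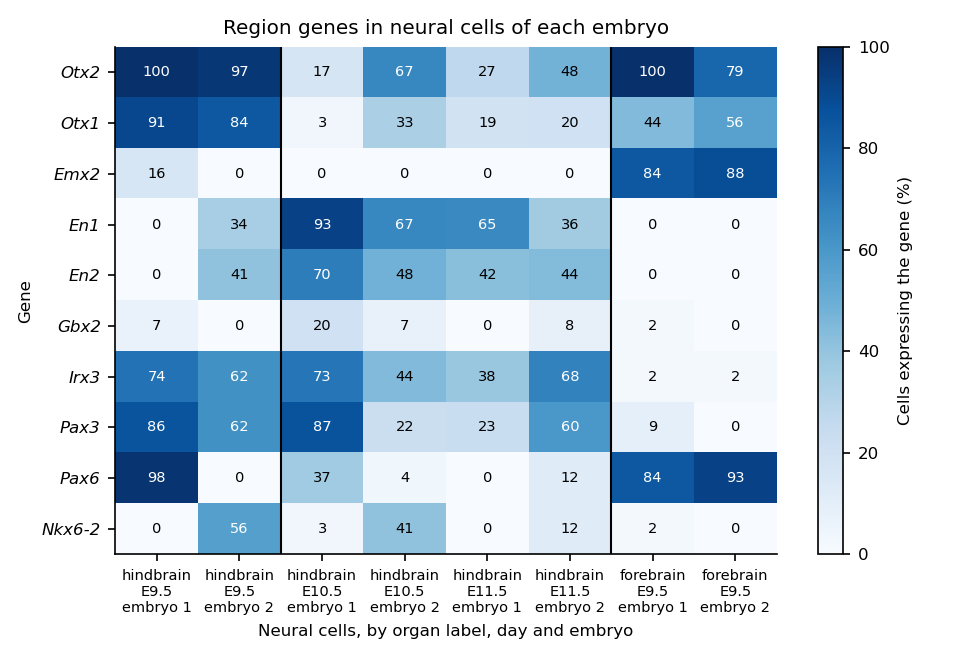
Percent of NC cells expressing 10 region genes (rows) in each hindbrain embryo from E9.5 to E11.5 and in the 2 E9.5 forebrain embryos (columns), colour running from 0 to 100%. Otx2 fills both E9.5 hindbrain columns (43 of 43 and 31 of 32 cells), and En1 and En2 are at 0 in E9.5 embryo 1.

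The 2 E9.5 embryos also differed in dorsoventral genes. Pax6 (chr2:105668900-105697364), a factor of the forebrain and of the hindbrain and spinal ventricular zone, was expressed in 42 of 43 cells of embryo 1 at a level of 4.12 and in 0 of 32 cells of embryo 2, without a single UMI, which allows up to 9.38% of cells with a UMI (3 counts, counting error only, and no limit on cells that express the gene). Nkx6-2, a ventral progenitor factor, was expressed in 0 of 43 cells of embryo 1 and 18 of 32 of embryo 2, at a level of 1.48. At least 1 of Nkx6-1, Nkx6-2 and the floor plate signal Shh was expressed in 0 of 43 and 20 of 32 cells. Of all genes, 3 were expressed in at least 50% of cells of embryo 1 and at most 5% of embryo 2, and 4 the other way: Pax6 and 2 genes of the Y chromosome in embryo 1, and Xist, Nkx6-2, the metallothionein gene Mt1 and the platelet gene Pf4 in embryo 2. Embryo 2 was the deeper library. After cells were thinned to 100000 UMIs, leaving out 2 cells of embryo 1 under that depth, these counts were 4 and 5 genes. With 1 library each, a difference between these 2 embryos has no replicate check.

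Progenitor and neuron states were then separated within each embryo. A cell was called neuron-like where the mean of 7 neuron markers (Tubb3, Stmn2, Stmn3, Dcx, Elavl3, Elavl4, Ina) exceeded the mean of 7 progenitor markers (Sox2, Sox3, Nes, Vim, Hes1, Hes5, Id3), and progenitor-like otherwise. This gave 30 progenitor-like and 13 neuron-like cells in embryo 1, and 22 and 10 in embryo 2. The classes are ranges of a score, not cell types, but few cells lay near the boundary: 2 cells of embryo 1 and 3 of embryo 2 were within 1 of it. Depth was alike in the states, with medians of 257511 UMIs in progenitor-like and 246642 in neuron-like cells of embryo 1, and 1201140 and 1026930 in embryo 2.

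Neuron-like cells made up 30.2% of cells in embryo 1 (95% exact Clopper-Pearson interval 17.2 to 46.1%, counting error only) and 31.3% in embryo 2 (16.1 to 50%). The later embryos held 66.7% and 37.0% at E10.5 and 69.2% and 56.0% at E11.5. Both E9.5 shares were below all 4 later ones. The mean difference was −26.5 percentage points, with an exact two-sided permutation p of 0.133 over embryos, the smallest that 2 against 4 embryos allow, so the design could not reach the usual threshold. With a neuron-marker mean above 2 as the limit of the state, the difference was −55.1 points. That limit made 30 of 30 cells of E10.5 embryo 1 neuron-like, and the blood cell of that library also exceeded it, at 2.93. The cells were picked by hand, so their shares follow the picking as well as the tissue. In progenitor-like cells the mean over the 7 neuron markers, which also set the class, was 0.95 and 0.92 at E9.5 and 3.14, 2.02, 2.47 and 2.26 later. Blood cells of these libraries, which should lack the markers, had means of 0.82 in E9.5 embryo 2 and 2.93, 1.55 and 1.93 in E10.5 embryos 1 and 2 and E11.5 embryo 1, close to the progenitor-like values of the same libraries, so the stage contrast of these means is not read as expression.

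**Figure D2:**
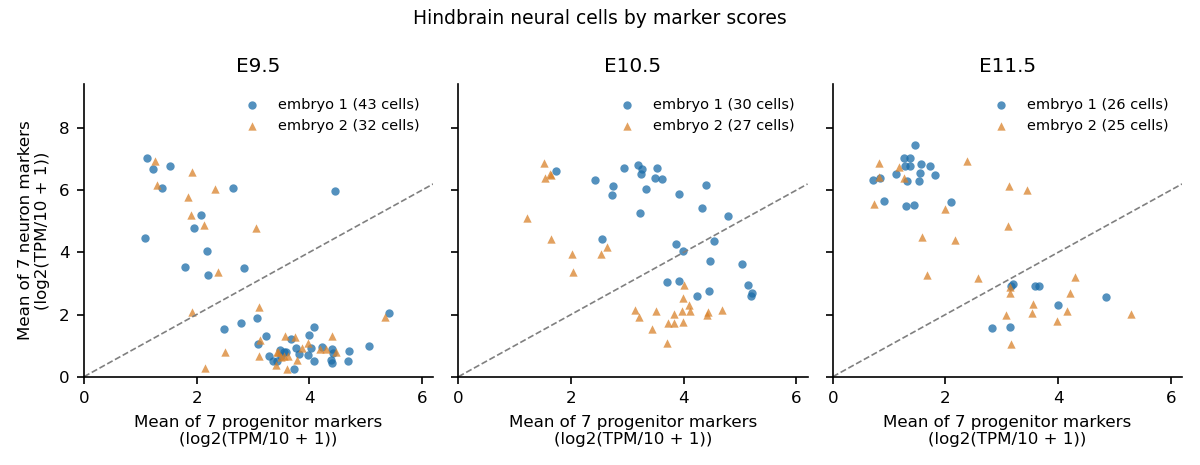
Mean level of the 7 neuron markers (vertical axis) against that of the 7 progenitor markers (horizontal axis) for each hindbrain NC cell, both as log2(TPM/10 + 1), in 1 panel per stage, with the dashed line marking equal means. At E9.5, 13 cells of embryo 1 and 10 of embryo 2 lie above the line, apart from a larger group near a neuron-marker mean of 1, while at E10.5 and E11.5 the cells under the line reach higher neuron-marker means.

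The promoters of 3 Notch and bHLH genes are printed here for their letters alone. They are Hes5, a Notch target among the markers that set the state, Dll3, a Notch ligand, and Nhlh2, a bHLH factor of new neurons. Each line holds the 250 bases before the transcription start, 5′ to 3′ on the strand of the gene, from the start in RefSeq on GRCm38.p6, at chr4:154960673-154960922 (plus strand), chr7:28301786-28302035 (minus strand) and chr3:102009895-102010144 (plus strand). Capitals mark matches on either strand to GTGGGAA, the core letters bound by the Notch effector RBPJ, or to the E-boxes CAGCTG and CATCTG read by bHLH factors. No match overlapped another. The gene starts of GENCODE, used for the gene coordinates, differ from those of RefSeq for Dll3 and Nhlh2: the Dll3 window lies inside the GENCODE gene, and the Nhlh2 window runs past the GENCODE start at chr3:102010076.
Hes5: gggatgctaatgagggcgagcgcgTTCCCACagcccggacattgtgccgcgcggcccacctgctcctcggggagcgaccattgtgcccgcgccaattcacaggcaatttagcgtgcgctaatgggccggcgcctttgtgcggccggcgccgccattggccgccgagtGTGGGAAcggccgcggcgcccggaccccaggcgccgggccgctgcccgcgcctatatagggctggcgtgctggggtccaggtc
Dll3: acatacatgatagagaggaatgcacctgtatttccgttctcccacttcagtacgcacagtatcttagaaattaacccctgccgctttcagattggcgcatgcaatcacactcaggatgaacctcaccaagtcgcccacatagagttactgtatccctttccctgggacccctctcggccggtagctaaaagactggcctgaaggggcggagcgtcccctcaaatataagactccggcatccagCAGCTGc
Nhlh2: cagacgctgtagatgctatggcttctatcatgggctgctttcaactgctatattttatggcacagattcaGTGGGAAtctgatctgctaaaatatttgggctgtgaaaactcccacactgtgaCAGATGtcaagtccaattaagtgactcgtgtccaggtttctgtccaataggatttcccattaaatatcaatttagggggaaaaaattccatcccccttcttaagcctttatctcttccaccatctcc
Hes5 held 2 matches to GTGGGAA, Dll3 held 1 CAGCTG, and Nhlh2 held 1 GTGGGAA and 1 CATCTG, read as CAGATG on the printed strand. Among 32851 promoter windows of this length, 5.42% held GTGGGAA, 13% CAGCTG and 14.4% CATCTG. A match describes letters and was not tested as a binding site.

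The contrast of states within E9.5 was summarised over 13159 genes, leaving out the 14 markers. The cells were split on genes of the same cells, so these values describe the split and are no test. Neuron-like cells were higher for 285 genes (2.17%) and lower for 203 (1.54%), 488 in all (3.71%), past the limma thresholds used below. With edgeR on summed UMIs, 348 genes passed, 245 of them higher and 103 lower. The limma number fell strongly without either E9.5 embryo. It also fell without either E10.5 embryo, and did not fall without either E11.5 embryo. The later embryos enter only through the shared estimate of spread.

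Proneural and early neuronal bHLH genes were among the higher ones, with 7 of the 15 measured genes of a proneural list past the thresholds. Neurod4 had levels of 0.28 and 0.11 in progenitor-like cells of embryos 1 and 2 and 3.30 and 1.87 in neuron-like cells, a difference of 2.39 ± 0.59 (SE, n = 2 embryos). It was expressed in 2 of 30 and 1 of 22 progenitor-like cells and in 11 of 13 and 6 of 10 neuron-like cells. Neurod1, its relative that holds neuronal fate, went from 0.69 and 0.28 to 5.24 and 3.42. Nhlh2, whose promoter is printed above, was expressed in 1 of 30 and 0 of 22 progenitor-like cells and in 12 of 13 and 10 of 10 neuron-like cells. For each of these genes both embryos had higher levels in neuron-like than in progenitor-like cells. Neurog1, a proneural factor that acts earlier, was at 1.33 and 0.18 in progenitor-like and 4.45 and 1.99 in neuron-like cells and did not pass the thresholds.

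The Notch list had 3 genes higher and 1 lower among 18. Dll3 (chr7:28293553-28302238) had levels of 1.54 and 1.13 in progenitor-like and 6.28 and 5.38 in neuron-like cells, a difference of 4.50 ± 0.64. It was expressed in all 13 and all 10 neuron-like cells, and in 11 of 30 and 7 of 22 progenitor-like cells. Dll1, another Notch ligand, had levels of 1.52 and 0.93 against 2.20 and 1.75 and did not pass. The 2 other higher genes were Mfng, a glycosyltransferase that modifies Notch, by 2.72, and Hes6, an antagonist of Hes1, by 2.68. The receptor gene Notch3 was the lower one, at 1.40 and 1.33 in progenitor-like and 0.05 in both neuron-like means. Hes5, which helped set the split, was expressed in 27 of 30 and 20 of 22 progenitor-like cells and 4 of 13 and 2 of 10 neuron-like cells. Over the cells of each embryo, Dll3 followed the score difference (neuron minus progenitor markers) with a Spearman correlation of 0.759 in 43 cells and 0.704 in 32, given as a description because the measures come from the same cells and depth.

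Neuronal transcription factors and structural genes were also higher. Onecut2, a factor of new neurons, went from 1.41 and 0.95 to 6.22 and 5.88, the largest difference at 4.87 ± 0.39. Pou4f1, a factor of sensory and midbrain neurons, went from 0.38 and 0.18 to 3.33 and 3.64, and was expressed in 12 of 13 and 8 of 10 neuron-like cells. It was found together with Tfap2b, a factor seen in dorsal midbrain and hindbrain neurons, in 8 of 13 and 7 of 10 neuron-like cells. The neuron maturation list had 15 of 26 genes higher, and all 26 differences were above 0. Nefm, a neurofilament subunit, went from 1.17 and 1.65 to 4.46 and 6.51, and the splicing regulator Srrm4 differed by 4.18 and the growth cone gene Gap43 by 3.1. Of 22 axon guidance genes, 4 were higher, among them the netrin receptor gene Dcc by 2.59. Isl1, a motor and sensory neuron factor, was expressed in 0 of 13 neuron-like cells of embryo 1 and 5 of 10 of embryo 2.

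Genes of the cell cycle were lower in neuron-like cells, 20 of 43 G1/S genes and 23 of 54 G2/M genes. Ccnd1, the cyclin of G1 progression, was at 3.81 and 5.96 in progenitor-like and 0.97 and 2.08 in neuron-like cells. Mcm3, a subunit of the replicative helicase, was at 3.90 and 4.20 against 1.26 and 1.18. Cenpf, a centromere protein of G2 and mitosis, was at 4.75 and 6.24 against 3.25 and 2.56, so in both embryos all 3 genes were lower in the neuron-like cells while still present. Otx2 did not follow the split, with levels of 4.82 and 4.64 in progenitor-like and 4.76 and 4.6 in neuron-like cells.

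**Figure D3:**
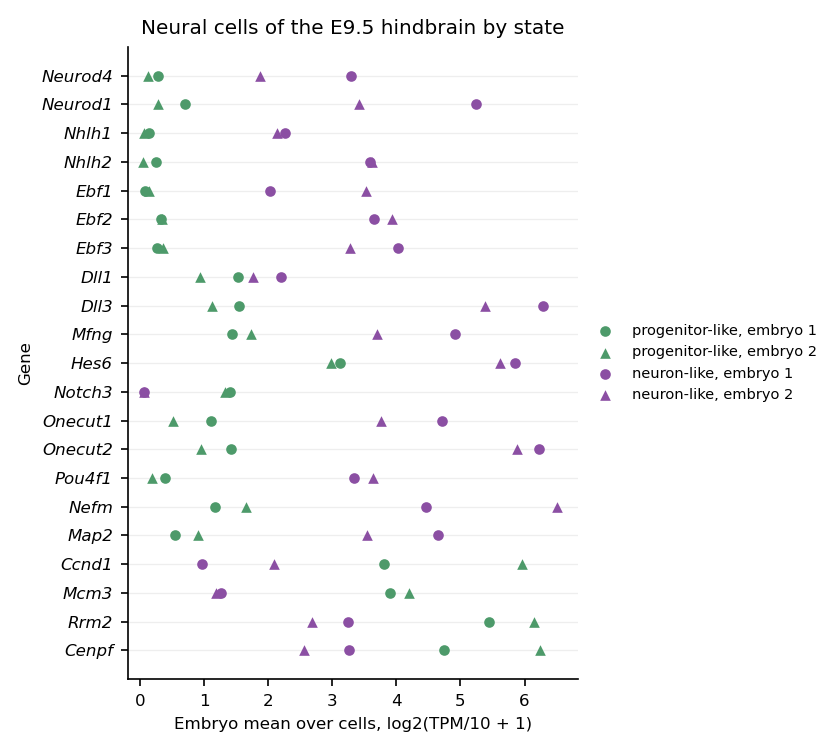
Levels of 21 genes, as log2(TPM/10 + 1), in progenitor-like and neuron-like hindbrain cells at E9.5, with 1 point per embryo and state. Dll3, Onecut2 and Nhlh2 lie far to the right in both neuron-like means, and Ccnd1 and Mcm3 lie to the left of their progenitor-like means.

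The E9.5 cells were next compared with hindbrain NC cells of the 4 later embryos, to ask how cells with this label differ between stages. Otx2, found in nearly every E9.5 cell, was expressed in 5 of 30, 18 of 27, 7 of 26 and 12 of 25 later cells. Position along the neural tube and stage therefore cannot be told apart in these comparisons. Of 14195 genes tested with limma and Benjamini-Hochberg adjustment, 339 (2.39%) differed at an adjusted p under 0.05 and a log2 difference of at least 1, 296 higher at E9.5 (2.09%) and 43 lower (0.303%). The median difference of all genes was 0.07. With edgeR on summed UMIs, 83 genes passed, 49 higher and 34 lower. A fit of the 6 hindbrain embryos without forebrain gave 20 genes, and the same fit over cells expressing Otx2 alone gave 5, of which Prtg, Igdcc3 and Srrm2 were higher and Ckb and Fabp7 lower (named after their values were seen). The count without 1 embryo was 16 and 52 without E9.5 embryos 1 and 2, 103 and 351 without the E10.5 embryos and 41 and 97 without the E11.5 embryos.

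A list of genes of the early neural tube, chosen with earlier results of these data known, was higher at E9.5. All 14 tested members had differences above 0, with a median of 1.23, and 8 passed. Prtg (chr9:72806874-72917291), which encodes protogenin, a receptor of early neuroepithelium, had levels of 3.70 and 4.43 at E9.5, 0.78 and 1.33 at E10.5 and 0.11 and 0.81 at E11.5. Its difference was 3.31 ± 0.30 (limma adjusted p = 0.00014), and it was expressed in 40 of 43 and 32 of 32 E9.5 cells. Lin28a, an RNA-binding protein that blocks let-7 maturation, had levels of 1.70 and 1.89 against 0.43, 0.56, 0.12 and 0.08 (1.5 ± 0.18, adjusted p = 0.0015). Its partner Trim71, a let-7 target, had 1.46 and 2.06 against 0.30, 0.51, 0.00 and 0.24. Igf2bp1, an mRNA-binding protein of the same circuit, had 5.76 and 5.98 against 3.99, 3.85, 3.26 and 4.49. All 4 genes were higher in both E9.5 embryos than in any later one. Prtg was named by a rule that requires this, and the list was chosen with earlier results known, so it is no further result.

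Other genes higher at E9.5 came from several groups. Igdcc3, of the same receptor family as Prtg, had levels of 4.61 and 4.78 against 1.05 to 2.37. Got2, the mitochondrial aspartate aminotransferase, was at 4.48 in both embryos and at 1.80 to 2.32 later (2.48 ± 0.24, adjusted p = 0.00032). Ccnd2, a G1 cyclin, had 7.42 and 7.60 against 4.12 to 5.66. These 3 were among the largest differences, which were chosen for not overlapping between embryos, so their lack of overlap is no further result. Of 43 G1/S genes 4 passed as higher, with all 43 differences above 0, and of 54 G2/M genes 6 passed (medians 0.95 and 0.84). Within progenitor-like cells 0 genes of either list passed, with medians of 0.63 and 0.22. Within neuron-like cells 1 and 2 passed as higher, with medians of 0.22 and 0.65. What the shares of the states add to the whole difference was not tested. Of 20 genes of Wnt and FGF signaling 4 were higher, including Wls, the carrier of secreted Wnts, by 2.08, and Axin2, a Wnt target, by 1.04. Otx2 and Otx1 were higher by 3.02 ± 0.59 (adjusted p = 0.021) and 1.92 ± 0.37 (0.019), and En2 was lower by a difference of −1.05 ± 0.21 (0.021). The cytoplasmic retinoic acid carrier Crabp1 did not pass, with 4.96 and 6.28 against 5.0 to 6.77.

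Of 26 neuron maturation genes 1 was lower at E9.5 (4 differences above 0, median −0.73), and of 17 late radial glia genes 1 was lower (5 above 0, median −0.27). Within neuron-like cells 0 of the 26 maturation genes passed (11 above 0, median −0.13). Within progenitor-like cells 0 of them passed as well (6 above 0, median −0.27). Tubb3 had levels of 4.49 and 3.93 against 7.23, 5.24, 7.31 and 6.79 (−2.44 ± 0.53, adjusted p = 0.03), and Stmn2 2.46 and 2.46 against 6.37, 3.98, 6.96 and 5.21 (−3.17 ± 0.80, adjusted p = 0.048). Neither passed with edgeR, at adjusted p of 0.14 and 0.32. Fabp7 (chr10:57784881-57788450), the fatty acid carrier of radial glia, had 3.83 and 3.88 against 6.62, 5.69, 5.19 and 6.64 (−2.18 ± 0.46, adjusted p = 0.029). Rnd3, a regulator of migrating neurons, had 2.60 and 2.76 against 5.34, 4.82, 5.33 and 5.23. Bcl11a, a zinc finger factor, had no UMI in 43 and 32 E9.5 cells, which allows up to 6.98% and 9.38% of cells with a UMI in the 2 embryos, and was expressed in 22 of 30, 15 of 27, 17 of 26 and 17 of 25 later cells. Both E9.5 embryos lay below all 4 later ones for each of these genes, as the rule that named them requires. Sox2 and Neurod4 did not pass, with later levels of 1.0 to 2.31 and 0.07 to 0.99 (differences of 1.01 ± 0.30, adjusted p = 0.081, and 0.27, adjusted p = 0.37).

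Neural transcripts were also found in cells that should lack them. Blood cells of the hindbrain libraries, annotated as group HC, numbered 10 in E9.5 embryo 2, 1 in each E10.5 embryo and 5 in E11.5 embryo 1, and none came from E9.5 embryo 1. Fabp7 was at 0.50 in the E9.5 blood cells and 6.15, 3.76 and 3.57 later, Stmn2 at 1.43 against 4.52, 2.85 and 3.53, and Rnd3 at 0.24 against 3.48, 0.93 and 1.57. Their median depths were 772498 UMIs at E9.5 and 550294, 773225 and 251344 later. Neural transcripts were thus present in blood cells at every stage, at higher levels in the later libraries for these 3 genes. Of the 43 genes lower at E9.5, 16 were expressed in all 7 later blood cells, and 26 still passed after the lowest value of any cell of a library was taken off each gene. Of the 296 higher genes, 75 were expressed in all 10 E9.5 blood cells, with a median level over the 296 of 2.56 there and 1.44 in later blood cells, and 215 still passed. What such background adds to the stage differences was not tested.

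Within progenitor-like cells 91 genes differed between E9.5 and later (0.692% of 13159), 73 higher (0.555%) and 18 lower (0.137%), with limma and Benjamini-Hochberg adjustment. With edgeR 52 passed, 26 in each direction. The count was 8 and 38 without E9.5 embryos 1 and 2, 13 without E10.5 embryo 2 and 51 without E11.5 embryo 1, and leaving out E10.5 embryo 1 left none, with 1336 genes at an unadjusted p under 0.05. Prtg had levels of 4.01 and 4.72 at E9.5 against 0.75, 1.66, 0.25 and 1.11 (3.43 ± 0.39, adjusted p = 0.00067), and the nuclear receptor gene Nr2f1 3.04 and 2.93 against 0.99, 1.38, 0.56 and 0.73 (2.07 ± 0.32, adjusted p = 0.005). Fabp7 was lower, with 4.19 and 4.72 against 7.62, 6.69, 7.98 and 8.04 (−3.13 ± 0.51, adjusted p = 0.0073). Progenitor-like cells at E9.5 thus had the early receptor in 28 of 30 and 22 of 22 cells. They had less of the radial glial gene than those of any later embryo, as the rule that named it requires. Ckb, brain creatine kinase, was also lower, at 5.79 and 6.16 against 7.77 to 8.47. Spry1, an inhibitor of FGF signaling, was at 0.05 and 0.83 against 3.12, 3.47, 1.19 and 1.75 (−1.94 ± 0.34, adjusted p = 0.012), and the FGF ligand gene Fgf17 was lower by a difference of −1.56. In the later blood cells Fabp7 and Ckb were high as well (Ckb 7.27, 7.35 and 4.79, against 3.63 at E9.5), and 9 of the 18 lower genes and 47 of the 73 higher genes still passed with the lowest cell taken off.

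Within neuron-like cells 329 genes differed (2.5%), 293 higher at E9.5 (2.23%) and 36 lower (0.274%). With edgeR 109 passed, 74 higher and 35 lower, and 85 and 74 passed without E9.5 embryos 1 and 2 and 50 and 81 without the E10.5 embryos. Of 24 neuronal subtype genes 5 were higher and 2 lower. Onecut2 had levels of 6.22 and 5.88 against 4.31, 3.99, 3.52 and 4.06 (2.08 ± 0.34, adjusted p = 0.0036), and Pou4f1 3.33 and 3.64 against 1.80, 1.67, 2.09 and 0.86 (1.88 ± 0.35, adjusted p = 0.0084). Lhx1, a factor of interneurons, was lower, with 0.00 and 0.02 against 3.20, 1.61, 1.53 and 2.18 (−2.12 ± 0.48, adjusted p = 0.022). Neuron-like cells thus had more of the first factors and less of the third at E9.5. Robo3, the receptor of commissural axons, was expressed in 0 of 13 and 0 of 10 E9.5 cells and in 8 of 20, 1 of 10, 10 of 18 and 10 of 14 later ones.

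Several genes were high in the E9.5 neuron-like cells and low or absent in later ones. Rassf4, a Ras-association protein, had levels of 6.21 and 4.78 against 1.35, 1.43, 1.85 and 2.14 (3.81 ± 0.38, adjusted p = 7.8e-05). Cck (chr9:121489824-121495694), which encodes the neuropeptide cholecystokinin, had 2.66 and 3.49 and was expressed in 7 of 13 and 6 of 10 cells, but in 0 of 62 later neuron-like cells (3.07 ± 0.24, adjusted p = 1.3e-05). Krt8, a keratin of simple epithelia, had 2.72 and 3.38 against 0.02 to 0.54 (2.86 ± 0.25, adjusted p = 3.2e-05). With no later neuron-like cell expressing Cck, those groups add little spread, so its SE and adjusted p say little about agreement at E9.5. These 3 genes were among the largest differences, chosen for not overlapping between embryos, so their lack of overlap is no further result. Krt18, the partner of Krt8, was higher by 1.41, at 0.90 and 2.12 against 0.00 to 0.22. Neurod1 was at 5.24 and 3.42 against 1.46 to 2.79. Ndn, a growth-arrest protein of neurons, was lower, at 2.60 and 2.83 against 4.63 to 6.45, and Rnd3 at 2.84 and 2.83 against 5.12 to 5.82 (−2.68 ± 0.27, adjusted p = 7.8e-05). With the lowest cell taken off, 34 of the 36 lower and 235 of the 293 higher genes still passed.

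**Figure D4:**
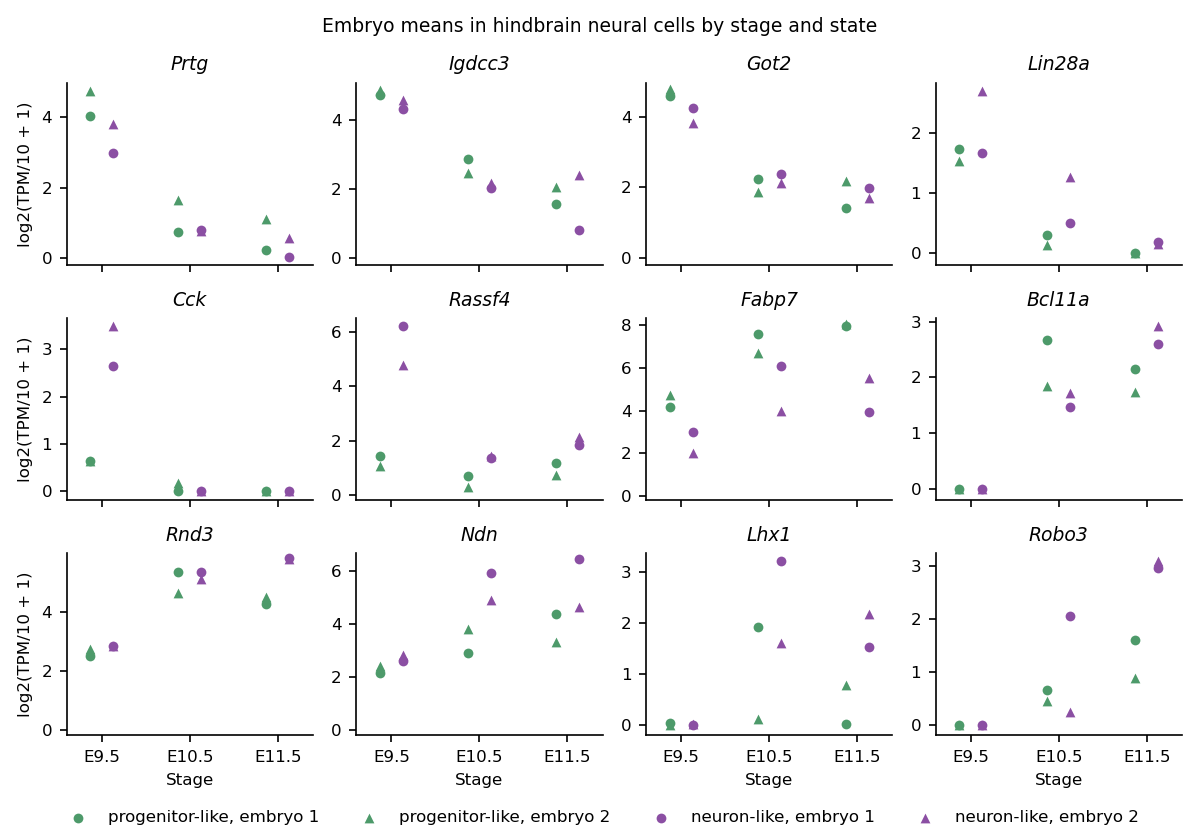
Levels of 12 genes, as log2(TPM/10 + 1), at E9.5, E10.5 and E11.5 in progenitor-like and neuron-like hindbrain cells, with 1 point per embryo. Prtg, Igdcc3, Got2 and Lin28a are highest at E9.5 in both states, Cck and Rassf4 stand out in the E9.5 neuron-like cells, and Fabp7, Bcl11a and Rnd3 are lowest at E9.5 in both states.

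The hindbrain cells were last set beside forebrain NC cells of the same 2 embryos, which share animal, stage and instrument. Of 14195 genes, 61 differed (0.43%), 41 higher in hindbrain (0.289%) and 20 lower (0.141%), with limma and Benjamini-Hochberg adjustment. With edgeR 120 passed, 105 higher and 15 lower. Without E9.5 embryos 1 and 2 the counts were 6 and 22, and 26 without either E11.5 embryo, whose cells enter through the shared estimate of spread. Crabp1, the retinoic acid carrier, had levels of 4.96 and 6.28 in hindbrain and 1.14 and 2.07 in forebrain (4.02 ± 0.56, adjusted p = 0.0066). In the 10 blood cells of the embryo 2 hindbrain library it was at 4.93 and expressed in 10 of 10, and the part of background RNA in its hindbrain level was not tested. Mab21l2, a factor of dorsal midbrain and eye, had 2.94 and 2.68 against 0.03 and 0.06 (2.76 ± 0.31, adjusted p = 0.0015). Irx3 had 2.71 and 2.51 against 0.08 and 0.06 (2.54 ± 0.40, adjusted p = 0.013), and its relatives Irx5 and Irx2 differed by 2.09 and 1.60. Mab21l2 and Irx3 were near 0 in the forebrain cells of both embryos.

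Of the 20 genes of the Wnt and FGF list 3 were higher in hindbrain, while 9 of 20 differences were above 0 and their median was −0.17. Wls had levels of 4.21 and 3.25 against 0.76 and 1.25, and Axin2 1.98 and 1.31 against 0.42 and 0.18. Sp5, a Wnt target, had 1.87 and 1.31 against 0.01 and 0.23. These are the 3 genes of the list that passed as higher, so their higher levels in both hindbrain embryos are no further result. Dmbx1, a factor of midbrain and diencephalon, was expressed in 23 of 43 and 17 of 32 hindbrain and in 0 of 45 and 0 of 43 forebrain cells. Lower in hindbrain were 4 of 17 forebrain and midbrain position genes. Emx2, a factor of dorsal forebrain, had 0.38 and 0.00 against 3.08 and 3.20 (−2.95 ± 0.41, adjusted p = 0.0066). Fezf1, a forebrain zinc finger factor, had 0.00 in both against 2.31 and 2.39 (−2.35 ± 0.21, adjusted p = 0.00021). Otx2 did not pass, at 4.80 and 4.63 against 3.84 and 2.66 (1.47 ± 0.68, adjusted p = 0.54). Neurod4 differed by 0.91 ± 0.19 (adjusted p = 0.049), under the fold threshold, and Tubb3 by 1.90 ± 0.61 (adjusted p = 0.28), though Tubb3 passed with edgeR (adjusted p = 0.002). A test of whether the stage difference itself differed between hindbrain and forebrain found 3 genes (0.0211%), Cck, Lrtm1 and Wfdc1. None of the 3 was expressed in 10% of the cells of the fit.

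**Figure D5:**
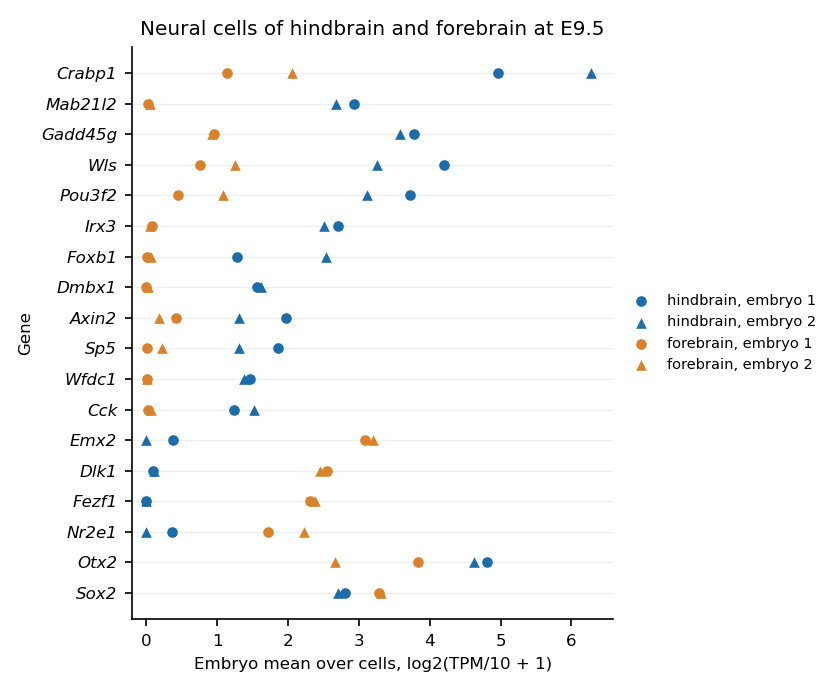
Levels of 18 genes, as log2(TPM/10 + 1), in hindbrain and forebrain NC cells at E9.5, with 1 point per embryo and organ. Mab21l2, Irx3 and Dmbx1 are near 0 in forebrain, Emx2 and Fezf1 are near 0 in hindbrain, and Otx2 is present in both.

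Markers of other cell types were measured in the same cells. Blood markers, summed over 12 genes, had a mean of 24.4 TPM in embryo 1 and 2398 in embryo 2, against 1153 to 3717 in the later embryos, and 6 and 4 of the 12 genes were at 0. Endothelial, mesenchyme and macrophage lists summed to 31.0 TPM or less in both E9.5 embryos, and the neural crest and ganglion list to 21.2 and 82.6 TPM, against 99.8 to 221 later. In neuron-like cells of E9.5 the neural crest and ganglion list summed to 38.1 and 200 TPM, against 171 to 309 later. Surface epithelium markers, which include Krt8 and Krt18, summed to 116 and 158 TPM against 3.57 to 24.3 later, with 4 and 2 of the 9 genes expressed in any cell. Of its other defining genes, Epcam was expressed in 0 of 43 and 0 of 32 cells and Cdh1 in 1 of 43 and 0 of 32, and Krt5 and Trp63 had no UMI in either embryo.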

How the data were processed

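Per the labels, the authors processed reads with CASAVA 1.8, TopHat2 2.0.12 and HTSeq on mm10, counted UMIs and deposited values named TPM, which are UMIs per 1000000 UMIs of the cell, the same as CPM. Whole UMIs were recovered from 100% of 11760022 positive values (tolerance 0.05). Cells carrying identical values were used once. Means over the cells of an embryo, on log2(TPM/10 + 1), entered limma 3.58.1 (R 4.3.3, trend, Benjamini-Hochberg) in fits of 12 embryo means, 1 over hindbrain and forebrain and 1 over hindbrain states. Genes expressed in at least 3 cells were tested, and calls needed adjusted p under 0.05 and a log2 difference of at least 1. Summed UMIs were tested with edgeR 4.0.16 as an alternative. Named genes were the 10 largest called in each direction without overlap between embryos, and members of gene lists. The members and lists were chosen with earlier results of these data known. By the labels the same-numbered embryo gave forebrain and hindbrain, so pairing of organs rests on the labels. Xist went against the sex label of the E10.5 embryo 2 hindbrain library. Both states of an embryo came from the same hindbrain library. Deviations of same-numbered embryos correlated at 0.359, -0.224 and -0.111 between organs at E9.5, E10.5 and E11.5. Between states they correlated at 0.269, 0.144 and 0.123. Doublets were not called, since single cells were picked by hand. Gene coordinates are from GENCODE on GRCm38, the assembly also called mm10. Intervals cover counting error only, and p-values measure the spread between embryos. The tests were run on simulated data first. Some items are not reported here.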

Additional observations from a re-analysis of the deposited data

Results flagged for a closer look

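The difference between E9.5 and later cells was itself different in hindbrain and forebrain for 3 genes, by a limma interaction test with Benjamini-Hochberg adjustment over 14195 genes. Cck, the gene of the neuropeptide cholecystokinin, differed by 1.31 ± 0.13 (adjusted p = 0.000929): it was at 1.24 and 1.53 in E9.5 hindbrain, 0.00 to 0.10 in later hindbrain, and 0.03 and 0.07 in E9.5 forebrain. Wfdc1 differed by 1.35 ± 0.12 (adjusted p = 0.000929) and Lrtm1 by 1.07 ± 0.11 (adjusted p = 0.00185). Cck was near 0 in E9.5 forebrain, so its interaction largely repeats the stage difference of the hindbrain. All 3 were higher in both E9.5 hindbrain embryos than in the later hindbrain. They were called for a contrast of this kind, so this is no further result. Instrument and stage change together in both organs. With edgeR on summed UMIs 20 genes passed, among them 1 of the 3 (Lrtm1), and Cck and Wfdc1 did not pass (adjusted p = 1.0 for both). None of the 3 was expressed in 10% of the cells of the fit, so that filter left them out. Without E9.5 embryo 2 and without E11.5 embryo 2, 2 of the 3 still passed. The count ranged from 4 to 17 with an embryo left out.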

How the results depend on the processing

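Counts of genes moved with the settings, given here for hindbrain E9.5 against later (339), hindbrain against forebrain (61), the stage difference between organs (3), the states at E9.5 (488), and E9.5 against later in progenitor-like (91) and neuron-like cells (329). On log2(TPM + 1) they were 776, 130, 6, 489, 142 and 598, and the median stage difference of all genes went from 0.07 to 0.22. Without a filter on low values 150, 23, 3, 219, 29 and 160 passed, and with genes expressed in 10% of cells 485, 101, 12, 631, 169 and 429. With edgeR the counts were 83, 120, 20, 348, 52 and 109, and after thinning 158, 30, 3, 319, 40 and 112. Thinning to 100000 UMIs left out cells under that depth, such as 10 of 25 in hindbrain E11.5 embryo 2. The set of cells thus changed along with the depth. The hindbrain stage count was 20 with hindbrain embryos alone, 41 against E10.5, 646 against E11.5 and 5 in Otx2-expressing cells of hindbrain embryos alone. Progenitor-like cells gave 56 genes with the lowest cell taken off and 54 without cells near the boundary of the states. Taking the lowest cell off and the Otx2 restriction were chosen after seeing the data. The share difference of neuron-like cells was −55.1 points when a neuron-marker mean above 2 set the state. The blood cell of E10.5 embryo 1 also exceeded that limit, at 2.93. Leaving out 1 embryo gave 16 to 351, 6 to 54, 4 to 17, 35 to 509, 0 to 68 and 50 to 281 genes, and −33.2 to −22.5 points for the share. With the embryo as a replicate block the counts were 337, 58, 3, 615, 96 and 332, each within 1.5 times. The value for Neurod4, hindbrain E9.5 against later, turned from 0.27 to −0.065 against E10.5 alone, and that for Stmn2, hindbrain against forebrain at E9.5, ran from −0.41 without E9.5 embryo 2 to 2.01 without embryo 1. For Dll1, neuron-like against progenitor-like at E9.5, edgeR gave −0.10. The cause was not tested. Among values of named genes, other settings left 1471 on the same side of the thresholds, whether called or not, and took 347 calls below them. Leaving out an embryo took more calls below the thresholds than these settings did. Depth of the E11.5 cells limits low genes, and 2 embryos per stage limit every stage difference.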
